A study of Homo sapiens with 4 samples.

Results

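The genes described here are 10 negative regulators and transcriptional outputs of the RAS-ERK pathway: the Sprouty genes SPRY1, SPRY2 and SPRY4, the SPRED genes SPRED1 and SPRED2, the MAP kinase phosphatases DUSP4, DUSP5 and DUSP6, and the ETS factors ETV4 and ETV5. All 10 were found by gene symbol among the 25122 genes of the deposited table. They were proposed with the difference between the groups of this experiment already known, so their differences are given as a description and carry no test. The data are mRNA sequencing of Jurkat, a long-established human leukaemia line of the T lineage. All libraries carry the genotype label WT. The shcontrol group has 2 libraries from cells given a control hairpin, and the shBDH1 group has 2 from cells given a hairpin against BDH1, a mitochondrial enzyme of ketone body metabolism. The hairpin sequence and the time after its delivery are not given in the labels, nor whether both shBDH1 libraries carry the same hairpin. The labels also do not state whether replicates are separate cultures. The p-values therefore cover the spread among these libraries alone, and that spread may be technical. The study's description also speaks of cells with restored MYC, which were not analysed here.

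RAS proteins pass receptor signals through the kinases RAF, MEK and ERK. Sprouty and SPRED proteins act near the top of this chain: Sprouty proteins hinder the coupling of receptors to RAS and RAF, and SPRED proteins bring the RAS-inactivating protein NF1 to the membrane. DUSP phosphatases act at its end by removing the phosphates that activate ERK and related kinases. ETV4 and ETV5 belong to the PEA3 group of ETS factors, whose genes are held down by the repressor CIC until ERK inactivates it. Since active ERK induces many of these genes, they form a negative feedback, and their mRNAs are widely used as a readout of ERK output, in T cells downstream of the T cell receptor. No phosphorylated protein was measured in these libraries.

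Short stretches of promoter are shown because they hold the letters that factors of this pathway are known to bind. RefSeq windows (GRCh38.p14) from 250 bases before to 50 after a gene start were given for 6 of the 10 genes, 10 windows in all; DUSP4, DUSP5, ETV4 and ETV5 have no window. Both strands were searched for the ETS core CCGGAA and its extension CCGGAAGT, the CIC octamers TGAATGAA, TGAATGGA, TCAATGAA and TCAATGGA, the AP-1 site TGACTCA, the cAMP response element TGACGTCA and the GC box GGGCGG. Each window below is 30 bases on the gene's own strand, 5′ to 3′, with the motif in capitals.
DUSP6, first CIC octamer, chr12:89352507-89352536: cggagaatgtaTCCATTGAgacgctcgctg
DUSP6, second CIC octamer, chr12:89352482-89352511: cgctgtttgtaTCCATTGAggagctgcctc
SPRY1, ETS core, chr4:123398307-123398336: tgccctccgcagCCGGAAgggggccgcggg
SPRY2, ETS core, chr13:80341251-80341280: tccctgcctcctCCGGAAaggcgagggcgc
SPRED2, AP-1 site, chr2:65366766-65366795: taaccctcggaTGACTCAtccggtacaatg
The DUSP6 window held the CIC octamer TCAATGGA on the opposite strand, starting at positions -24 and 2 counted from the gene start as 1. That octamer stood in 0.51% of all 35116 promoter windows, and the DUSP6 window was the 1 window with at least 2 copies of this spelling. Of the other CIC spellings, at least 2 copies stood in 65 windows for TGAATGAA, 12 for TGAATGGA and 3 for TCAATGAA. The ETS core was common, in 17.2% of all windows, and the AP-1 site stood in 4.95%. The SPRY1 core and the SPRED2 AP-1 site lie in windows of starts inside these genes (123398136 to 123398435 and 65366729 to 65367028). The windows at the outer starts of these genes held neither match. GC boxes stood in 6 of the 10 member windows and in 45.0% of all windows. The 6 belong to 5 genes (SPRY1, SPRY2, SPRY4, SPRED1 and SPRED2). No member window held CCGGAAGT (4.14% of all windows), TGAATGAA (1.65%), TGAATGGA (1.03%), TCAATGAA (0.718%) or TGACGTCA (1.85%). Both DUSP6 octamers lie inside the bounds of the DUSP6 gene in GENCODE 29 (89347232 to 89353271). These are matches of letters, not measured binding.

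Values are normalized counts, gene reads that the authors scaled by a size factor for each library. The libraries held between 28681511 and 29453383 gene reads. BDH1, the targeted gene, was at 1725 and 1911 in shcontrol and 1221 and 1412 in shBDH1. Of 19301 genes tested with limma, 41.1% passed an adjusted p of 0.05, 20.3% as higher and 20.8% as lower in shBDH1. T-lineage markers were abundant in both groups: 16 of 17 were measured, 10 rose and 1 fell, and their sum was 74709 to 74726 in shcontrol and 89476 to 89885 in shBDH1. Markers of other cells were low but higher in shBDH1 for some lists: the 6 measured NK and cytotoxic markers summed to 126 to 128 in shcontrol and 392 to 459 in shBDH1, and the 3 measured B cell markers to 220 in each shcontrol library and 666 to 686 in shBDH1. The 5 measured myeloid markers summed to 62.3 to 72.9 and 116 to 126, with LYZ at 0 in 3 libraries. The 4 measured fibroblast and epithelial markers summed to 727 to 738 and 938 to 1048, and the 2 measured erythroid markers to 367 to 371 and 293 to 324. The part of such markers in the results below was not tested.

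Of the 10 genes, 9 lay higher in both shBDH1 libraries than in either shcontrol library, and SPRY1 alone had groups that overlapped. For comparison, the groups did not overlap for 69.0% of all genes tested, and shBDH1 lay wholly above for 34.1%. The limma threshold was passed by 8 of the 10, all of them higher in shBDH1, where 20.3% of all genes were called higher; ETV4 and SPRY1 did not pass. A rise of at least 2-fold that passed was seen for 5 (ETV5, SPRY4, DUSP5, DUSP6 and DUSP4), against 4.71% of all genes. Since the genes were chosen with this contrast known, nothing is read from these shares. The median log2 fold change of the 10 was 1.10, and that of all genes tested -0.01. All 10 averaged at least 10 normalized counts in each group, so none entered the test through 1 group alone. In bulk libraries, more RNA per cell and more cells that hold the RNA cannot be told apart.

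**Figure D1:**
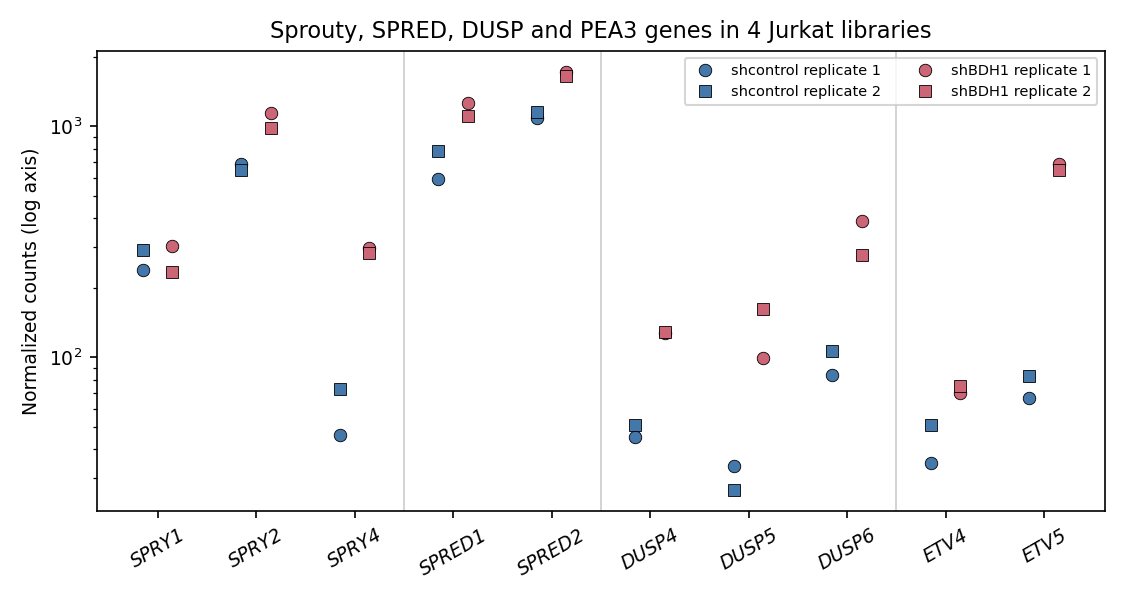
Normalized counts (log axis) of the 10 genes in each of the 4 libraries; blue marks are shcontrol, red marks shBDH1, circles replicate 1 and squares replicate 2. Red marks lie above blue ones for 9 genes, and for SPRY1 they overlap.

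The PEA3 factor ETV5 showed the widest gap of the 10 genes on the log scale. ETV5 (ENSG00000244405, chromosome 3 from 186046308 to 186110318, hg38) had 66.7 and 82.8 normalized counts in shcontrol and 690 and 647 in shBDH1. Both shBDH1 libraries stood far above both shcontrol libraries, by at least 564 normalized counts. Group means were 74.8 ± 11.3 and 668 ± 30.7 (SD, n = 2 each), 8.94-fold higher, with a log2 change of 3.15 (SE 0.18).

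ETV4 (ENSG00000175832, chromosome 17 from 43527844 to 43579620), its close relative, was a low gene in both groups. It had 34.9 and 51.1 normalized counts in shcontrol and 69.8 and 75.4 in shBDH1. The groups did not overlap, but the nearest libraries were only 18.7 normalized counts apart. The means were 43.0 ± 11.4 and 72.6 ± 3.99 (SD, n = 2 each), a log2 change of 0.77 (SE 0.35) that did not pass the threshold. It was 0.50 without shcontrol replicate 1 and 1.03 without shcontrol replicate 2. The remaining PEA3 factor ETV1, outside the 10 and added with its values known, had 46.2 and 22.5 normalized counts in shcontrol and 83.5 and 81.5 in shBDH1, a log2 change of 1.33 (SE 0.38, limma adjusted p = 0.0061). Without shcontrol replicate 2 this was 0.82 and no longer passed (limma adjusted p = 0.1).

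The balance within the PEA3 pair also differed between the groups. Per length, ETV4 and ETV5 made up near-equal parts in shcontrol, where ETV5 gave 50.2% to 54.3% of the pair's reads per kilobase of exon. In shBDH1, ETV5 gave 84.2% to 86.0%.

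The Sprouty genes did not move alike. SPRY4 (ENSG00000187678, chromosome 5 from 142310427 to 142326455), which blocks signalling between receptors and RAS, had 46.2 and 72.6 normalized counts in shcontrol and 298 and 282 in shBDH1. Both shBDH1 libraries lay at least 209 normalized counts above the shcontrol ones, although the shcontrol libraries differed by 1.57-fold between themselves. The means were 59.4 ± 18.6 and 290 ± 11.5 (SD, n = 2 each), 4.88-fold higher, with a log2 change of 2.30 (SE 0.24).

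SPRY2 (ENSG00000136158, chromosome 13 from 80335976 to 80340951), a regulator that also binds the ubiquitin ligase CBL, started from a higher level. Its values were 684 and 647 normalized counts in shcontrol and 1146 and 987 in shBDH1. The groups were apart by 303 normalized counts, more than the gap within either group. The mean rose from 665 ± 26.1 to 1066 ± 113 (SD, n = 2 each), 1.60-fold, a log2 change of 0.68 (SE 0.10). SPRY2 thus gained 401 normalized counts on average and SPRY4 230, although SPRY4 had the larger fold.

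SPRY1 (ENSG00000164056, chromosome 4 from 123396795 to 123403760), another brake on receptor signalling, had 239 and 290 normalized counts in shcontrol and 304 and 234 in shBDH1. The lowest of the 4 libraries and the highest were both shBDH1, so the groups overlapped fully. Its log2 change was 0.02 (SE 0.17), and it ran from -0.17 to 0.20 as each library was left out in turn, so no direction can be given. SPRY1 and SPRY2 both hold an ETS core in the promoter stretches printed above.

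Within the family, SPRY2 made up most Sprouty reads per length in every library, 71.6% to 77.0% in shcontrol and 75.6% to 76.1% in shBDH1. SPRY4 went from 2.41% and 3.72% to 9.09% and 10.1%, while SPRY1 went from 20.6% and 24.6% to 15.3% and 13.8%. The SPRY1 share was thus lower in shBDH1 without a lower SPRY1 level.

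Both SPRED genes rose, each by less than 2-fold. SPRED1 (ENSG00000166068, chromosome 15 from 38252326 to 38357249), which binds NF1 and is mutated in Legius syndrome, had 592 and 780 normalized counts in shcontrol and 1264 and 1106 in shBDH1. The shcontrol libraries differed by 1.32-fold, and the gap between groups, 326 normalized counts, was wider than that. The means were 686 ± 132 and 1185 ± 112 (SD, n = 2 each), 1.73-fold higher, with a log2 change of 0.80 (SE 0.11).

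SPRED2 (ENSG00000198369, chromosome 2 from 65310851 to 65432637), its paralogue, was the most counted of the 10 genes. It had 1084 and 1149 normalized counts in shcontrol and 1725 and 1645 in shBDH1. The libraries of a group agreed closely, within 1.06-fold in each, and the groups were 496 normalized counts apart. The mean went from 1117 ± 45.6 to 1685 ± 56.4 (SD, n = 2 each), 1.51-fold, a log2 change of 0.59 (SE 0.08). SPRED2 kept 70.2% to 74.6% of the pair's reads per length in shcontrol and 68.6% to 70.5% in shBDH1, so the balance of the pair overlapped between groups.

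The 3 phosphatases all rose from low levels. DUSP6 (ENSG00000139318, chromosome 12 from 89347232 to 89353271), a cytoplasmic phosphatase selective for ERK, had 84.2 and 106 normalized counts in shcontrol and 389 and 277 in shBDH1. The shBDH1 libraries differed from each other by 1.41-fold, yet the lower one lay 170 normalized counts above the higher shcontrol library. The means were 95.2 ± 15.6 and 333 ± 79.7 (SD, n = 2 each), 3.5-fold higher, with a log2 change of 1.78 (SE 0.21). This is the gene whose promoter window holds the pair of CIC octamers printed above.

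DUSP5 (ENSG00000138166, chromosome 10 from 110497838 to 110511544), a nuclear phosphatase selective for ERK, had 33.9 and 26.6 normalized counts in shcontrol and 99.3 and 162 in shBDH1. Its shBDH1 libraries were the least alike of any of the 10 genes, 1.63-fold apart, with shBDH1 replicate 2 the higher one; for DUSP6 replicate 1 was the higher one. The groups did not overlap. The means were 30.2 ± 5.17 and 131 ± 44.3 (SD, n = 2 each), 4.32-fold higher, with a log2 change of 2.04 (SE 0.34).

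DUSP4 (ENSG00000120875, chromosome 8 from 29333064 to 29350668), a nuclear phosphatase that acts on ERK and other MAP kinases, had 45.2 and 51.1 normalized counts in shcontrol and 128 and 129 in shBDH1. The shBDH1 libraries were nearly equal, and both lay at least 76.7 normalized counts above shcontrol. The means were 48.1 ± 4.19 and 128 ± 0.67 (SD, n = 2 each), 2.66-fold higher, a log2 change of 1.40 (SE 0.29).

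The summed level of the 3 phosphatases, in RPKM (reads scaled to the length of annotated exon and to the library's gene reads), was 1.27 and 1.36 in shcontrol and 4.82 in each shBDH1 library, 3.66-fold higher. Of that sum in shBDH1, DUSP6 gave 60.2% in replicate 1 and 42.8% in replicate 2, DUSP5 27.2% and 44.4%, and DUSP4 12.6% and 12.7%. With the DUSP4 share nearly equal, a lower DUSP6 share means a higher DUSP5 share, so nothing is read from their opposite shifts.

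**Figure D2:**
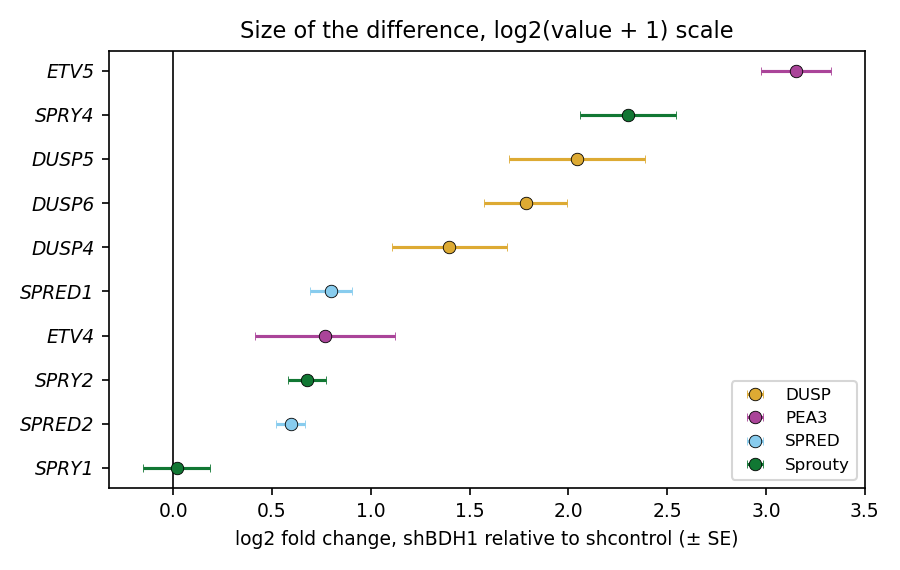
Log2 fold change of shBDH1 relative to shcontrol for each gene on the log2(value + 1) scale, with bars of 1 SE from limma, coloured by family. ETV5 lies at 3.15, SPRY4 and the 3 phosphatases between 1.40 and 2.30, and SPRY1 at 0.02.

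By level, of the 10 genes, 6 had a shcontrol mean under 100 normalized counts (SPRY4, the 3 phosphatases, ETV4 and ETV5), and 5 of these 6 were at least 2-fold higher in shBDH1. The 4 with a mean over 200 (SPRY1, SPRY2, SPRED1 and SPRED2) were all under 2-fold. Of all genes tested, 6.64% were at least 2-fold higher at any p. Among the 5518 tested genes with a shcontrol mean under 100, the share was 19.03% (1050 genes). The shcontrol mean enters both this split and the fold, so nothing is read from it.

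Levels of different genes were compared per length of annotated exon. In shcontrol, SPRY2 (7.44 RPKM) and SPRED2 (7.36) stood at the top and overlapped each other. SPRED1 (2.82) and SPRY1 (2.27) followed, again with libraries that overlapped. DUSP6 (0.70) stood apart below them, and ETV5 (0.44), ETV4 (0.41), DUSP5 (0.39), SPRY4 (0.31) and DUSP4 (0.23) formed a low group in which each gene overlapped its neighbour.

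In shBDH1 the top was the same, with SPRY2 at 12.1, SPRED2 at 11.3 and SPRED1 at 4.96 RPKM. ETV5 had moved from the sixth to the fourth place at 3.98, apart from SPRED1 above it and DUSP6 below it. DUSP6 (2.48), SPRY1 (2.35), DUSP5 (1.73) and SPRY4 (1.53) came next, each overlapping its neighbour. ETV4 (0.70) and DUSP4 (0.61) were last. These levels depend on the exon models, because long exons that Jurkat cells may not use lower a gene's value.

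**Figure D3:**
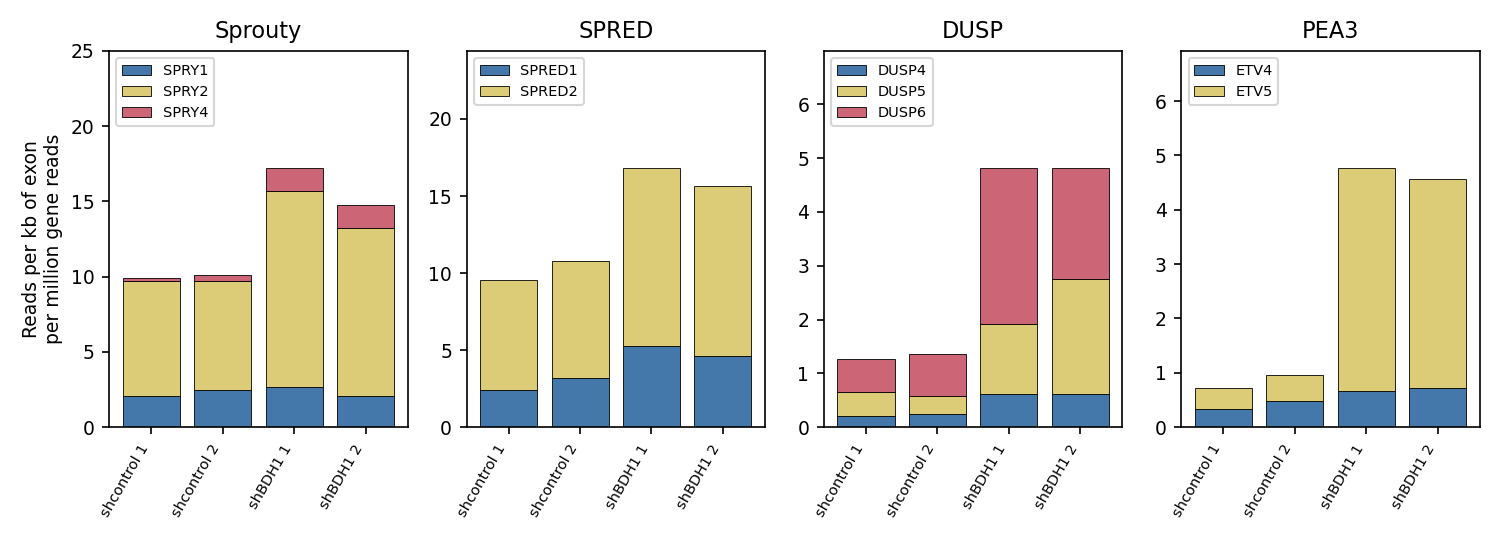
RPKM, reads scaled to annotated exon length and library total, in each library, stacked by gene, with 1 panel per family and a separate axis from 0 in each. The Sprouty and SPRED stacks are 1.60-fold taller in shBDH1 on average, the DUSP stack 3.66-fold and the PEA3 stack 5.55-fold.

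Genes on the opposite strand overlap 4 of the 10 genes and have values of their own, and no strand setting of the read counting is known, so reads of such pairs may be shared. AC024909.1 (ENSG00000274021, named as in the table) shares 1875 exon bases with DUSP6. It had 42.1 and 27.6 normalized counts in shcontrol and 146 and 138 in shBDH1, a log2 change of 2.03 (SE 0.32, limma adjusted p = 6.7e-06). Its counts were 26.0% to 50% of those of DUSP6, so the separate values of this pair are uncertain.

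SPRY4-AS1 and ETV5-AS1 overlap their partner genes by 1163 and 1778 bases with no exon base in common. SPRY4-AS1 had 22.6 and 13.3 normalized counts in shcontrol and 111 and 68.4 in shBDH1, a log2 change of 2.26 (SE 0.43, limma adjusted p = 9.6e-05). ETV5-AS1 had 9.24 and 11.2 in shcontrol and 79.6 and 51.3 in shBDH1, a log2 change of 2.54 (SE 0.51, limma adjusted p = 0.00019). Both were thus higher in the same libraries as SPRY4 and ETV5, at a lower level.

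**Figure D4:**
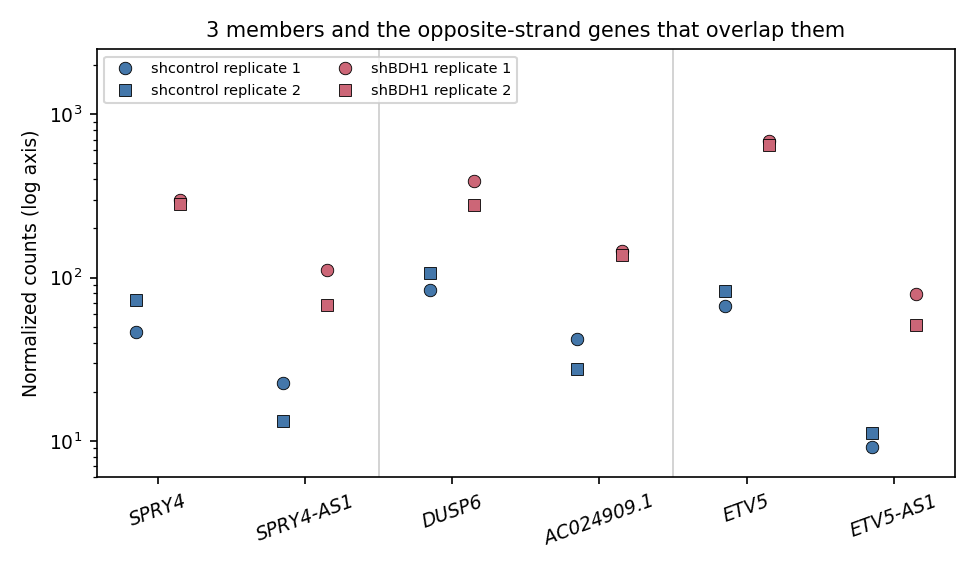
Normalized counts (log axis) of SPRY4, DUSP6 and ETV5, each beside the gene that overlaps it on the opposite strand; blue marks are shcontrol, red marks shBDH1, circles replicate 1 and squares replicate 2. In each pair both genes are higher in the shBDH1 libraries, with ETV5-AS1 going from 9.24 and 11.2 to 79.6 and 51.3.

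DHX8, an RNA helicase gene that spans ETV4 on the opposite strand and shares 68 exon bases with it, had 2858 and 2861 normalized counts in shcontrol and 2432 and 2444 in shBDH1. It fell by 0.23 on the log2 scale (limma adjusted p = 0.0017) where ETV4 lay higher. DHX8 counts were 3240.0% to 8185.3% of those of ETV4, so the low ETV4 values are uncertain too. Whether they hold DHX8 reads was not tested. DGKG, a diacylglycerol kinase gene on the same strand as ETV5 with 164 shared exon bases, had 58.5 and 68.5 in shcontrol and 115 and 101 in shBDH1. Its log2 change was 0.76 (SE 0.29, limma adjusted p = 0.035), which no longer passed without shcontrol replicate 1 (limma adjusted p = 0.14), shBDH1 replicate 1 (0.19) or shBDH1 replicate 2 (0.074), with no filter on low values (0.069) or with DESeq2 (DESeq2 adjusted p = 0.083).

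Other genes of the pathway, in 6 lists, were read from the same limma fit. Of 102 entries 98 were measured and 94 tested; 56 rose and 15 fell, where 20.3% of all genes rose and 20.8% fell. These lists were written with earlier results of these data known, and nothing particular to them is read from the counts.

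Of 19 other inhibitors at the level of receptors and RAS, 13 rose and 2 fell, with a median log2 fold change of 0.44 against -0.01 over all genes. RASAL3, a RAS GTPase-activating protein of T cells, averaged 571 ± 95.3 in shcontrol and 1411 ± 61.5 in shBDH1 (SD, n = 2 each), with a log2 change of 1.31 (limma adjusted p = 1.1e-11). NF1, the partner of SPRED proteins, had 3333 and 3304 normalized counts in shcontrol and 4938 and 4657 in shBDH1, a log2 change of 0.53 (limma adjusted p = 1.2e-09). IL17RD, also called Sef, rose from 179 to 412 normalized counts on average and the adaptor DOK2 from 792 to 1266. The shcontrol libraries of IL17RD were unlike, at 132.5 and 225.9 normalized counts. Its log2 change was 0.865 without shcontrol replicate 1 and 1.631 without shcontrol replicate 2. The 2 that fell, named after their values were seen, were the ubiquitin ligase CBLB (-0.38) and the RAF inhibitor PEBP1 (-0.26); CBLB did not pass without shcontrol replicate 2 (limma adjusted p = 0.072) or shBDH1 replicate 2 (0.061). CBL itself had a log2 change of 0.11 and LZTR1 of -0.41, and neither passed (limma adjusted p = 0.064 and 0.15); CBL passed with edgeR on reads under each of its normalizations (edgeR adjusted p = 0.009 to 0.044), with limma-voom, with the replicate block and without shBDH1 replicate 2.

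Among the 7 other MAP kinase phosphatases, 4 rose and none fell, with a median of 0.42. DUSP10, which acts on JNK and p38, had 96.5 and 96.1 normalized counts in shcontrol and 459 and 444 in shBDH1. Its log2 change of 2.22 (SE 0.18, limma adjusted p = 3.1e-11) was close in size to those of DUSP5 and SPRY4; that difference was not tested. DUSP2, a nuclear phosphatase of activated lymphocytes, rose by 0.60 (limma adjusted p = 1.2e-05), DUSP8 by 1.07 (0.0096) and DUSP1 by 0.39 (0.023). DUSP8 did not pass without shBDH1 replicate 1 (limma adjusted p = 0.13), and DUSP1 did not pass without shcontrol replicate 2 (0.21), shBDH1 replicate 1 (0.089) or shBDH1 replicate 2 (0.079), with no filter (0.05) or with DESeq2 (DESeq2 adjusted p = 0.068). DUSP7, a cytoplasmic ERK phosphatase like DUSP6, was at 1291 ± 26.2 and 1304 ± 30.2 normalized counts (SD, n = 2 each), and DUSP16 at 1228 ± 22.1 and 1177 ± 83.6. Neither passed (limma adjusted p = 0.9 and 0.57).

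Of 15 other ETS factors tested, 10 rose and 4 fell, with a median of 0.24. FLI1 rose by 0.56, ELK3 by 0.69 and ELF1 by 0.34, and GABPA fell by 0.44 on the log2 scale (limma adjusted p from 5.6e-10 to 3.2e-06). ETS1, the most counted ETS gene, ELK1 and ETS2, named after their values were seen, were the others that fell, by 0.17, 0.20 and 0.17. ELK1 did not pass without shcontrol replicate 1, shcontrol replicate 2 or shBDH1 replicate 1 (limma adjusted p = 0.057, 0.068 and 0.059), and ETS2 did not pass without shcontrol replicate 2 (0.2) or shBDH1 replicate 1 (0.15). Calls were also lost with edgeR and upper-quartile factors for both (edgeR adjusted p = 0.051 for ELK1 and 0.068 for ETS2), and for ETS2 with DESeq2 (0.054) and with no filter (0.053). ETV2 was near the lower limit of the test at 16.4 ± 7.30 and 22.7 ± 15.1 normalized counts (SD, n = 2 each) and did not pass (limma adjusted p = 0.7); its log2 change ran from -0.35 to 1.05 as each library was left out.

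The 5 measured repressors and degraders of PEA3 factors all passed, 3 higher and 2 lower. CIC, which represses ETV4, ETV5 and DUSP6 in other cells, had 3220 and 3242 normalized counts in shcontrol and 2370 and 2430 in shBDH1, a log2 change of -0.43 (limma adjusted p = 3.8e-07). ATXN1, a partner of CIC, had 278 and 184 in shcontrol and 589 and 615 in shBDH1, a rise of 1.41 (limma adjusted p = 1.8e-08). Of the ubiquitin ligase that degrades PEA3 proteins, the subunit COP1 rose by 0.28 and DDB1 fell by 0.35 on the log2 scale. Repression by CIC and protein stability were not measured.

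Of 23 tested genes that ERK signalling induces, outside the 10, 12 rose and 2 fell, with a median of 0.65. EGR1, a zinc finger factor induced within minutes of ERK activation, had 2398 and 2188 normalized counts in shcontrol and 6313 and 5721 in shBDH1, a log2 change of 1.39 (limma adjusted p = 1.9e-17). IER3 rose by 1.72 and the survival gene MCL1 by 0.59 on the log2 scale. MYC, also an ERK-responsive gene, fell by 0.99 (limma adjusted p = 2.7e-18), from an average of 14744 normalized counts to 7411. The other that fell, named after its values were seen, was the growth factor gene HBEGF, with a log2 change of -1.37. ZFP36 and PLAUR did not pass (0.19 each on the log2 scale, limma adjusted p = 0.085 and 0.17); ZFP36 passed with edgeR and upper-quartile factors (edgeR adjusted p = 0.036).

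Of 25 tested genes of the cascade itself, 14 rose and 5 fell, with a median of 0.19. The kinase gene MAP2K1 (MEK1) rose by 0.58, NRAS by 0.41 and SHOC2, which helps activate RAF, by 0.57 on the log2 scale (limma adjusted p from 4.7e-09 for MAP2K1 to 1.3e-07 for SHOC2). MAPK3 (ERK1) had a log2 change of -0.40. It is named after its values were seen, as are RASGRP1 (-0.34), PTPN11 (-0.16), GAB2 (-0.29) and FRS3 (-0.31), the others that fell. PTPN11 did not pass without shcontrol replicate 2 (limma adjusted p = 0.085), GAB2 without shcontrol replicate 1 (0.32) or shBDH1 replicate 2 (0.22), and FRS3 without shcontrol replicate 2 (0.29), shBDH1 replicate 1 (0.06) or shBDH1 replicate 2 (0.13). GAB2 and FRS3 also lost their calls with edgeR and upper-quartile factors (edgeR adjusted p = 0.057 and 0.07), with DESeq2 (0.082 and 0.1) and with no filter (0.085 and 0.064). MAP2K2 and SOS1 did not pass (0.01 and -0.04 on the log2 scale, limma adjusted p = 0.94 and 0.72).

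**Figure D5:**
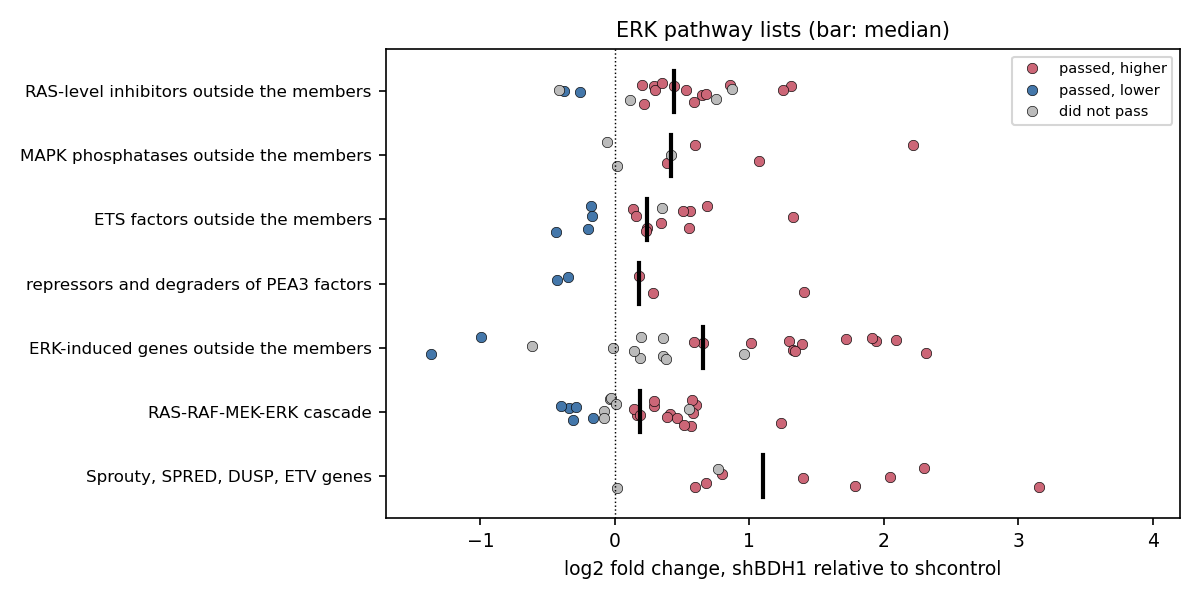
Log2 fold change of shBDH1 relative to shcontrol for the tested genes of 6 pathway lists and for the 10 genes described above (bottom row); red points passed limma as higher, blue as lower, grey did not pass, and black bars are medians. Medians run from 0.18 for repressors and degraders of PEA3 factors to 0.65 for ERK-induced genes, and the 10 genes, chosen on this contrast, have 1.10.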

How the data were processed

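The authors deposited 1 signal value per gene and library: gene read counts divided by a size factor. This was found from the values; within 0.01 reads, 100.0% of each library's values were whole multiples of 1 step, and the size factors were 0.9739 to 1.0174. Per the submitters' processing notes the build was hg38 and tools included FastQC 0.11.9 and HISAT2 2.2.1. The sources used here name no read counter, annotation or strand setting. Spreadsheet dates had replaced 21 symbols, which were renamed by gene ID. Positions are from GENCODE 29.

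The 19301 genes averaging at least 10 over all libraries were tested with limma 3.58.1 (R 4.3.3) on log2(value + 1) with an intensity trend and Benjamini-Hochberg adjustment; this scale understates the change of low genes. Residual degrees of freedom were 2 and prior ones 25.8. The smallest p of an exact two-sided permutation test with 2 against 2 libraries is 0.333, so none was used. Alternatives were edgeR 4.0.16, DESeq2 1.42.0 and limma-voom on recovered reads, other filters and pseudocounts, the replicate block and each library left out. In reads simulated for this comparison, 19288 genes were tested. There limma found 1 of 50 genes changed 1.25-fold, 10 of 50 changed 1.5-fold, 41 of 50 changed 2-fold and 49 of 50 changed 4-fold. It made 1 false call. Far fewer genes were changed there than the 41.1% that passed here, and the simulated spread was assumed, not estimated from these libraries. The simulation therefore does not give the share found or the false calls in the real libraries.

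Members and lists were chosen with earlier results of these data known. Besides the members, the text names up to 4 genes per list that passed with the smallest p, up to 2 abundant ones that did not, and genes that overlap a member; others are marked. Replicates differed beyond counting noise (chi-square per degree of freedom 3.72 for shcontrol and 5.13 for shBDH1), so none was a duplicate. Listed genes without a value were not analysed here. A gene that the naming rule picks is not reported here.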

Additional observations from a re-analysis of the deposited data

How the results depend on the processing

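In the 10 alternatives that kept all libraries, 8 of the 10 genes passed, with ETV4 and SPRY1 the exceptions. The genes were chosen with this contrast known, so nothing is read from that count. In these alternatives the 10 log2 fold changes moved by less than the spread between libraries (SD). Without 1 library each, log2 fold changes ran from 3.0 to 3.30 for ETV5, 1.98 to 2.62 for SPRY4, 1.69 to 2.39 for DUSP5, 1.54 to 2.03 for DUSP6, 1.31 to 1.49 for DUSP4, 0.60 to 1.00 for SPRED1, 0.50 to 1.03 for ETV4, 0.57 to 0.78 for SPRY2, 0.55 to 0.64 for SPRED2 and -0.17 to 0.20 for SPRY1. In the same fits, genes that rose numbered 3145 to 3472 and genes that fell 3206 to 3639 over all genes, and 43 to 54 and 10 to 13 among pathway genes outside the 10. The replicate number as a block gave 4108 higher and 4217 lower over all genes, and 57 and 15 in the pathway lists. Same-numbered libraries shared no deviation (correlation 0.001), so the numbers were not taken as pairs; of the named genes, the block changed the call of CBL. Upper-quartile factors gave 4422 higher and 3331 lower. Of 50 named genes outside the 10, 12 changed their call in at least 1 alternative. ETV2, DUSP7, DUSP16, MAP2K2 and SOS1, which had not passed, changed sign in some. Depth limits the low genes most: ETV4 rested on 34 to 75 reads per library and DUSP5 on 26 to 161.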
